A study of Mus musculus with 8 samples.

Results

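Mcts2 is an imprinted retrogene that lies inside an intron of its host gene H13 on mouse chromosome 2, and it was examined here together with H13 and with the downstream neighbours Id1, Bcl2l1 and Tpx2. The 5 genes were taken by symbol from a table of 22810 genes that gave, for every embryo, the reads carrying the B6 or the cast variant of a single nucleotide polymorphism (SNP). The embryos were single blastocysts of embryonic day 3.5 (E3.5), a stage at which an outer trophectoderm encloses the inner cell mass. All were F1 hybrids from natural matings between the inbred strain C57BL/6 (B6) and Mus musculus castaneus (cast), carried no other labelled allele or treatment, were not cultured and were lysed whole for SMART-Seq2. The 3 forward embryos (replicates 1, 2 and 3) had a B6 mother and a cast father, and the 5 reverse embryos (replicates 1, 2, 3, 5 and 7) had a cast mother and a B6 father. The maternal allele is therefore B6 in forward and cast in reverse embryos, so that an effect of parent and an effect of strain can be separated over both crosses. The labels do not tie embryos to litters, so that embryos of 1 cross may be littermates.

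Genomic imprinting restricts expression of a gene to the allele from 1 parent, through marks such as DNA methylation that are set in the oocyte or sperm and kept after fertilisation. Mcts2 arose by retrotransposition of the X-linked gene Mcts1, whose product joins DENR in a complex that acts on ribosomes in recycling and re-initiation of translation. Its promoter is methylated in the oocyte, and it is known as a gene expressed from the paternal allele. H13 encodes signal peptide peptidase, an aspartyl protease in the membrane of the endoplasmic reticulum that cleaves signal peptides after their release from newly made proteins. Its transcripts are known to use alternative polyadenylation sites before or after Mcts2 according to the parental allele. Id1 encodes an inhibitor of basic helix-loop-helix transcription factors, Bcl2l1 encodes the anti-apoptotic protein BCL-XL, and Tpx2 encodes a spindle assembly factor that activates Aurora A kinase.

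In mm10 (GRCm38) with GENCODE M21, H13 covers chr2:152669461-152708670 on the forward strand. The only Mcts2 transcript, a single exon of 912 bases at chr2:152687035-152687946 on the same strand, falls in intron 4 of the full-length H13 transcript, 849 bases after exon 4 and 717 bases before exon 5. Of 6 annotated H13 transcripts, 3 span Mcts2, 2 end before it (334 and 3594 bases before its start) and 1 starts after it. No annotated H13 exon overlaps Mcts2. The counts are per gene, so that H13 transcripts ending before Mcts2 cannot be separated from those that pass it, and, because both genes lie on the same strand, a read from unspliced H13 intron at the Mcts2 exon would look like an Mcts2 read. The longest alignment of the Mcts2 exon with an Mcts1 transcript covered 671 bases at 83.8% identity. No row of Mcts1 was analysed here. Further downstream lie Id1 (chr2:152736251-152737410, forward strand), Bcl2l1 (chr2:152780668-152831728, reverse strand) and Tpx2 (chr2:152847964-152895321, forward strand).

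The 250 bases before the RefSeq start of Mcts2 and of H13 are shown because Mcts2 starts inside H13 while the alleles of the genes were read differently in these embryos. Both windows are from RefSeq on GRCm38.p6, chr2:152686898-152687147 for Mcts2 and chr2:152669211-152669460 for H13, each on the forward strand, and capitals mark TGCCGC, the hexamer whose methylated form is bound by ZFP57, a zinc finger protein that protects imprints.
Mcts2: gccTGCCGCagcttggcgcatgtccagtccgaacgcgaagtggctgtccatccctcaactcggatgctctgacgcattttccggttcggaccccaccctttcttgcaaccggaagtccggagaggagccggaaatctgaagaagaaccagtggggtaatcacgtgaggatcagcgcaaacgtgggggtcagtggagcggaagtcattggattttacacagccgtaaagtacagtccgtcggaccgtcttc
H13: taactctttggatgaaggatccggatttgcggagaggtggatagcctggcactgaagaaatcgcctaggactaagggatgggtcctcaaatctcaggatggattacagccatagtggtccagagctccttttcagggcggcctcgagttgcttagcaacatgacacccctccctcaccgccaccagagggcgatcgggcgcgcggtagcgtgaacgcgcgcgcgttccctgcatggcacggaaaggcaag
The Mcts2 window held 1 match to TGCCGC, 247 bases before the RefSeq start, and the H13 window held none, with both strands searched (TGCCGC and its reverse complement GCGGCA, which can share letters where they overlap). Of 32851 RefSeq promoter windows of this length, 8.68% held at least 1 match, so that a match is common and is only a description of the letters. CpG dinucleotides numbered 20 in the Mcts2 and 18 in the H13 window against a median of 6, and 17.9% and 21.7% of all windows held as many or more. The RefSeq start used here is 113 bases downstream of the GENCODE start of Mcts2. RefSeq promoters were matched for 3 of the 5 genes, and the 3 Bcl2l1 windows held 0, 11 and 12 CpG dinucleotides and no match to the hexamer.

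Each embryo gave between 1060063 and 1632695 SNP-covering reads, of which 57.4 to 58.3% carried the B6 allele. All 13 blastocyst markers were detected in every embryo, with a summed level of 3940 to 5278 RPM (reads scaled to 1000000 SNP-covering reads of the embryo) in 7 embryos and 1288 in reverse embryo 1. Forward embryo 1 carried 969 RPM of 15 macrophage and leukocyte markers, 94.7% of them maternal, against 23.3 to 148 in the other 7 embryos. Results that rest on these 2 embryos are given with and without them.

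Every read of Mcts2 came from the paternal allele. The paternal reads numbered 25, 16 and 20 in forward embryos 1, 2 and 3, and the maternal reads were 0 in each. In reverse embryos 1, 2, 3, 5 and 7 the paternal reads numbered 2, 18, 11, 21 and 13, and the maternal reads were again 0. The cast allele was thus the only one read in forward embryos and the B6 allele the only one in reverse embryos, without overlap between the crosses (B6 shares apart toward the paternal allele were found in 5.04% of 8399 genes with at least 5 reads in every embryo, a minimum that Mcts2 itself missed). Reverse embryo 1 held few reads, and its 2 paternal of 2 reads allow a paternal share as low as 15.8% (95% exact Clopper-Pearson interval). The next lowest, reverse embryo 3 with 11 of 11, allows a share down to 71.5%. Such intervals, and the floors below, cover counting error only.

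Over all 8 embryos 0 of 126 reads were maternal, which allows a maternal share of up to 2.38% when the floor is set at 3 counts over the group, and the paternal level was at least 42-fold higher. With the same floor the limit was 4.92% for the 61 reads of forward and 4.62% for the 65 reads of reverse embryos. The edgeR quasi-likelihood test, with terms for strain and parent of the allele, called Mcts2 paternal (adjusted p = 2.24e-04 over 12564 autosomal genes). Its fitted log2 fold change depends on the prior count, since the maternal libraries are all at 0, and is not a bound. Mcts2 was the only one of the 5 genes called at an adjusted p of at most 0.1, where the share called among all tested genes was 1.42% in either direction, 1.11% paternal and 0.31% maternal. The maternal share rests on 39 genes, which became 17, 24 and 21 without forward embryos 1, 2 and 3, and 65 by DESeq2. The call held without each embryo in turn, with adjusted p between 3.09e-05 and 0.00205. It also held in 7 other fits, among them DESeq2 and an embryo-blocked model. A strain difference was not called for Mcts2 (log2 cast over B6 0.87, SE 0.73, adjusted p = 0.546). With no maternal read, this term sets paternal cast reads of forward embryos against paternal B6 reads of reverse embryos. Strain and cross therefore cannot be told apart for Mcts2, and with the embryo term strain could not be estimated (SE 4039.92).

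**Figure D1:**
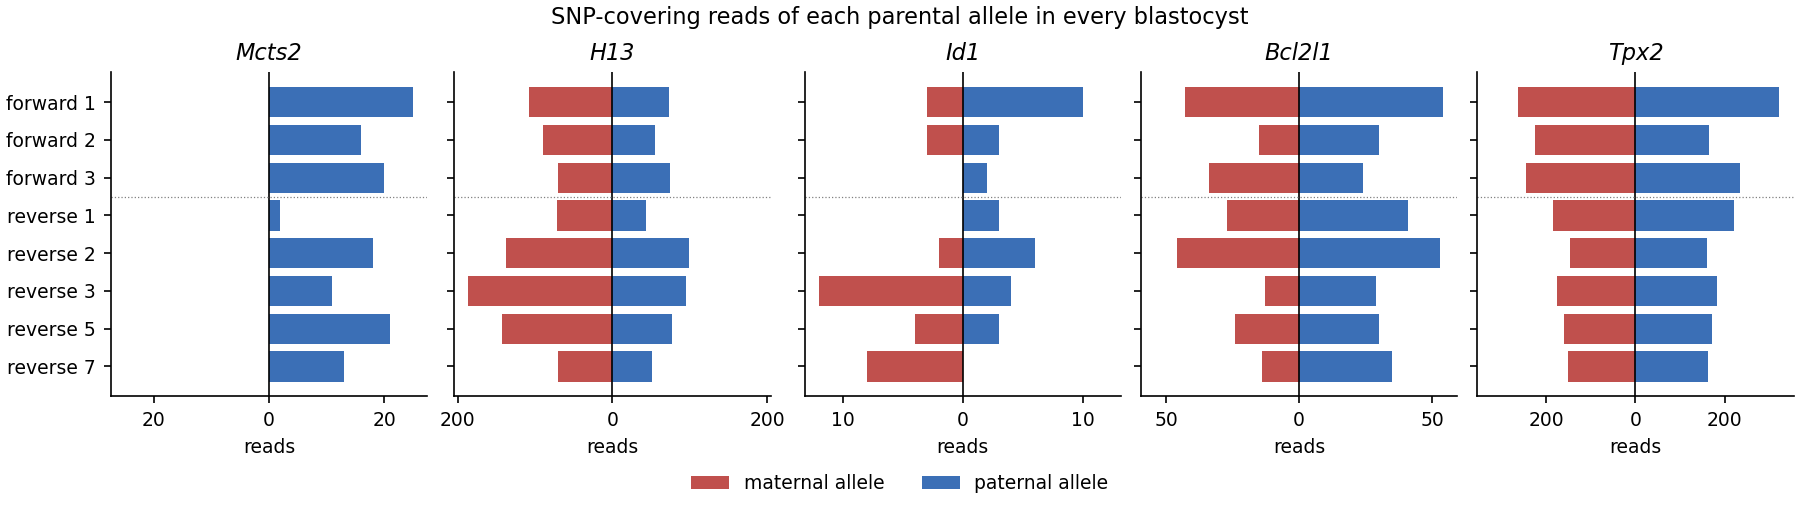
SNP-covering reads of the maternal (red, to the left) and paternal allele (blue, to the right) of 5 genes in 3 forward and 5 reverse blastocysts, 1 bar per embryo, with a separate linear read axis for each gene. Mcts2 shows only blue bars, of 2 to 25 reads, whereas H13 extends further to the maternal side in 7 of 8 embryos and Tpx2 is nearly symmetrical.

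The plot of reads by allele sets the retrogene beside its host. H13, the signal peptide peptidase gene around Mcts2, was read from both alleles in every embryo, with more maternal than paternal reads in 7 of 8. In forward embryos 1, 2 and 3 the maternal reads numbered 107, 90 and 70 and the paternal reads 73, 55 and 74. In reverse embryos 1, 2, 3, 5 and 7 they were 72, 137, 186, 142 and 70 on the maternal and 44, 99, 95, 77 and 51 on the paternal side. Forward embryo 3 was the only one with slightly more paternal than maternal reads. In total 874 of 1442 reads were maternal.

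As counted, forward embryos had a paternal H13 share of 43.3% ± 7.13 (SD, n = 3), with a range of 37.9 to 51.4%. Reverse embryos had a share of 38.2% ± 3.82 (SD, n = 5), ranging from 33.8 to 42.1%. After scaling each allele library by TMM, which evens out the excess of B6 reads, the shares became 48.8% ± 7.07 and 32.5% ± 3.32. On the scaled values 7 of 8 embryos again had less than 50% of their H13 reads from the father, forward embryo 3 (56.6%) being the exception. The B6 share of H13 ranged from 48.6 to 62.1% in forward embryos, where B6 is maternal, and from 33.8 to 42.1% in reverse embryos, where it is paternal. These ranges did not overlap, and the reverse minus the forward mean was -18.5 percentage points (two-sided exact permutation test over embryos, p = 0.0357, the smallest that 3 against 5 embryos can give). Among the same 8399 genes, non-overlap toward the maternal allele was found in 3.66%.

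In the model with strain and parent, H13 was not called (log2 paternal over maternal fell by 0.58, SE 0.29, 95% interval -1.17 to 0.02, unadjusted p = 0.0561, adjusted p = 0.722 by edgeR). The share of all genes with an unadjusted p of at most 0.05 was 7.31%. When a block term for the embryo was added, which uses the pairing of the 2 allele libraries of an embryo, the estimate was -0.56 with a smaller SE of 0.17, and H13 was called maternal (edgeR adjusted p = 0.0922). In that model 3.1% of genes were called, 1.03% as maternal and 2.08% as paternal, and the count over all genes rose from 178 to 390. With the embryo term and each embryo left out in turn, the estimate lay between -0.68 and -0.48 and a call remained only without reverse embryo 1 (adjusted p = 0.0663), whereas it was lost without any of the other 7 (adjusted p between 0.1002 and 0.447). The direction was maternal in all these fits, as the plot of H13 under each model shows.

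The parental difference of H13 was also set against a margin of 2-fold. In the main model an equivalent level of the alleles within that margin was not called (adjusted p = 0.169), whereas 35.4% of all genes were. With the embryo term it was called (adjusted p = 0.0261), as it was for 45.3% of all genes, so that in this model the lean of H13 differed from 0 and was also within 2-fold. Leaving out forward embryo 3 ended the second of these calls (adjusted p = 0.138 by edgeR). The strain term followed the same pattern, with cast over B6 at 0.51 on the log2 scale (SE 0.29, adjusted p = 0.305) in the main model and 0.49 (SE 0.17, adjusted p = 0.0409) with the embryo term. The shares of all genes called for strain were 15.4% and 25.5% in the respective models.

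**Figure D2:**
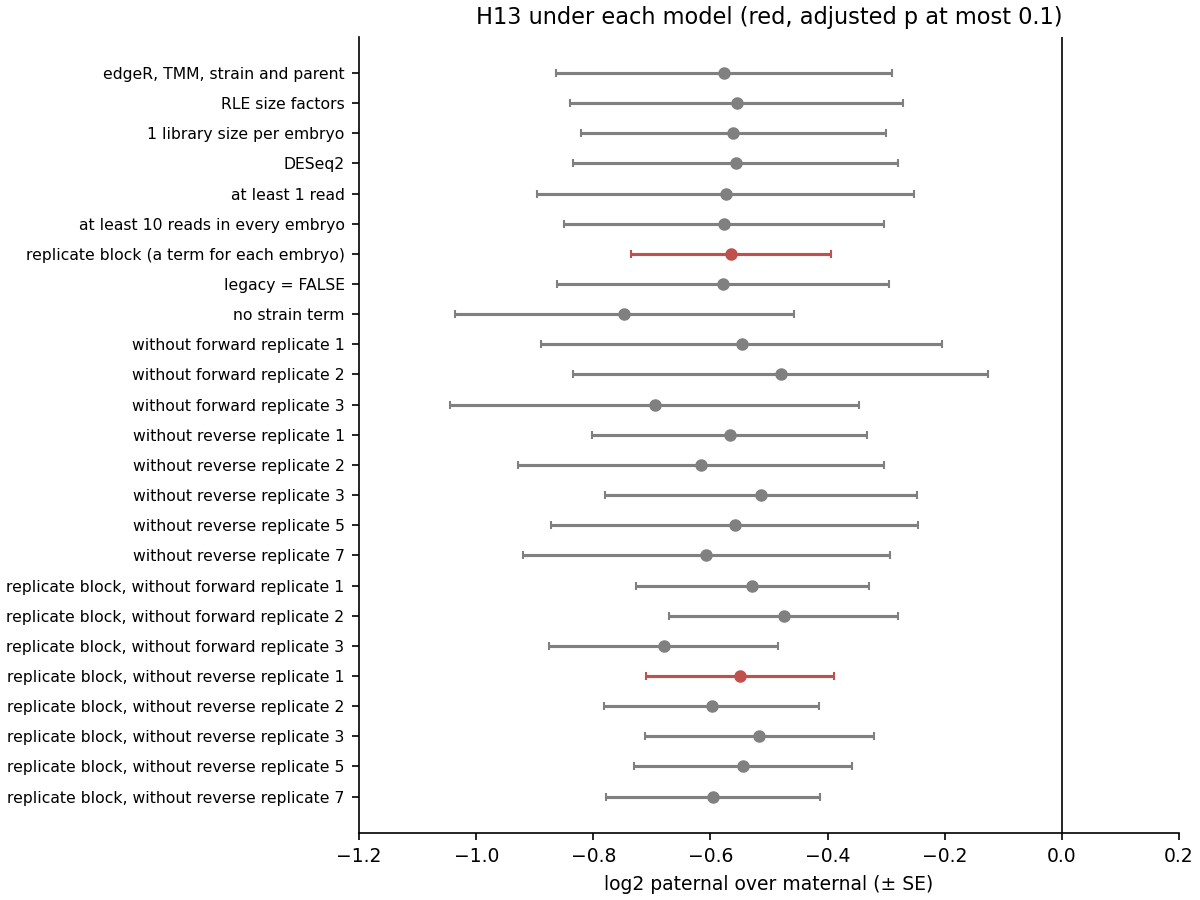
Log2 ratio of paternal over maternal H13 (x axis, point and SE) under each model, scaling, read filter and left-out embryo (rows), with red for an adjusted p of at most 0.1. Every estimate lies below 0, between -0.75 and -0.48, and only the embryo-blocked model, with all embryos or without reverse embryo 1, is red.

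Cells of the mother carry maternal alleles alone, and markers of other cell types were therefore measured beside H13. Of the 15 macrophage and leukocyte markers, 10 were tested and 2 were called maternal by edgeR (1 by DESeq2), beside 0.31% of all tested genes, Lyz2 (lysozyme, 1144 maternal and 5 paternal reads) and C1qb (a complement subunit, 279 and 1). Both were also called for strain (edgeR adjusted p = 0.0018 and 1.64e-04), beside 15.4% of all tested genes, and neither call is given without forward embryo 1. The summed level of the 15 markers was 132 to 969 RPM in forward and 23.3 to 102 in reverse embryos. Ptprc, which encodes the pan-leukocyte antigen CD45, had 0 paternal and 27 maternal reads. Without forward embryo 1, which carried most of these reads, the H13 estimate was -0.55 (SE 0.34, adjusted p = 0.9999 by edgeR). For Mcts2, forward embryo 1 had no maternal read among 25. The cumulus and granulosa markers summed to 4.004 to 19.97 RPM and the oocyte markers to 137 to 338. The uterine and oviduct markers summed to 32.6 to 351. Most oocyte-list reads were of Ooep (958 maternal and 1026 paternal) and most uterine and oviduct reads of Cldn3 (617 and 739). Those 2 sums therefore do not measure maternal cells. Of other members, Zp2 (47 and 8) and Esr1 (37 and 3) leaned maternal and Muc1 (126 and 105) less so. In the 3 lists 0 of 2, 0 of 3 and 0 of 6 tested genes were called by edgeR or DESeq2 (1 uterine and oviduct marker had an unadjusted p under 0.05). Over all tested genes 1.42% were called by edgeR and 7.31% had such a p. The part of cells of other types in the H13 and Mcts2 values was not tested.

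Id1, the nearest tested gene downstream at 48.3 kb from Mcts2, was sparsely read. Its maternal reads numbered 3, 3 and 0 in forward and 0, 2, 12, 4 and 8 in reverse embryos, and its paternal reads 10, 3 and 2 and then 3, 6, 4, 3 and 0. No side was favoured throughout, with 32 maternal and 31 paternal reads in total and a log2 ratio of 0.11 (SE 0.82, 95% interval -1.58 to 1.79, adjusted p = 1 by edgeR). Neither a difference nor an equivalent level could be shown at this depth (equivalence adjusted p = 0.285).

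Bcl2l1, 92.7 kb downstream, had more paternal than maternal reads in 7 of 8 embryos as counted. The maternal reads were 43, 15 and 34 in forward and 27, 46, 13, 24 and 14 in reverse embryos. The paternal reads were 54, 30 and 24 in forward and 41, 53, 29, 30 and 35 in reverse embryos. Forward embryo 3 was the exception, and on TMM-scaled values 3 embryos fell on the maternal side. The log2 ratio was 0.42 (SE 0.29, 95% interval -0.19 to 1.03, adjusted p = 1 by edgeR), which was not called, and the B6 shares of the crosses overlapped (exact permutation test, two-sided, p = 0.107). The difference was placed within 2-fold (equivalence adjusted p = 0.0939), a call that was lost without any 1 of 6 embryos, namely all 3 forward embryos and reverse embryos 2, 3 and 5 (adjusted p between 0.102 and 0.284).

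Tpx2, 160 kb downstream and the most deeply read of the 5 genes, was close to balanced. In forward embryos 1, 2 and 3 it had 263, 226 and 246 maternal and 322, 164 and 235 paternal reads. In reverse embryos 1, 2, 3, 5 and 7 it had 185, 146, 175, 160 and 151 maternal and 220, 161, 182, 172 and 163 paternal reads. The paternal share ran from 42.1 to 55.0% in forward and from 51.0 to 54.3% in reverse embryos, so that the crosses overlapped. The log2 ratio was 0.01 (SE 0.23, 95% interval -0.46 to 0.48), and an equivalent level within 2-fold was called (equivalence adjusted p = 0.0170) and kept without each embryo in turn (adjusted p between 0.00204 and 0.0831). It was not placed within 1.5-fold (adjusted p = 0.489).

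**Figure D3:**
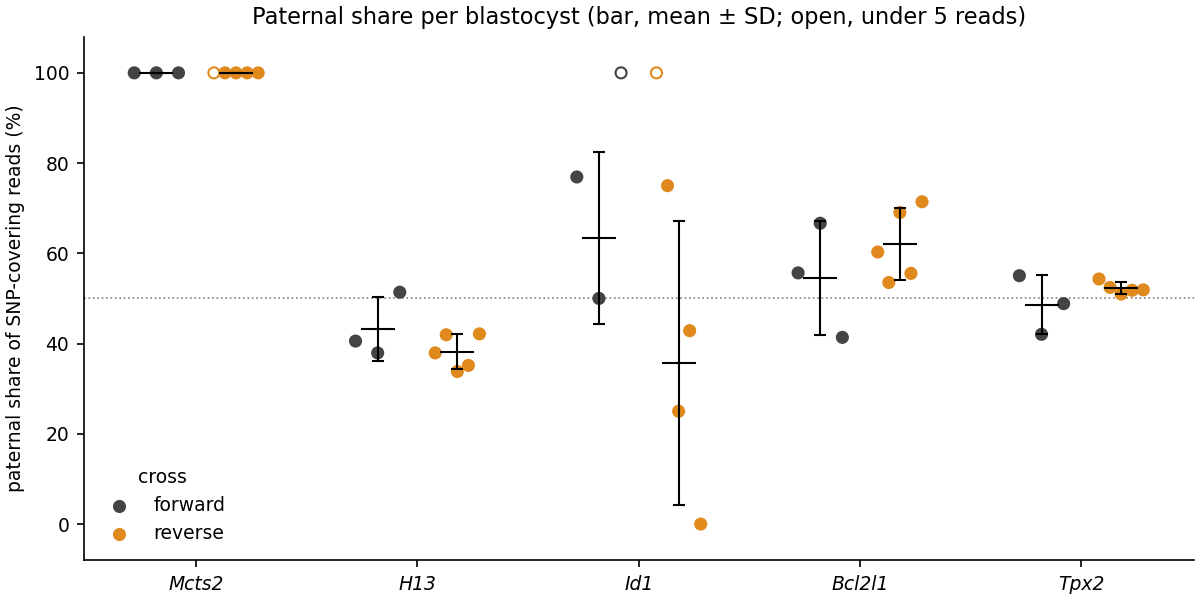
Paternal share of SNP-covering reads (y axis, %) of 5 genes in forward (grey) and reverse blastocysts (orange), 1 point per embryo, with the mean and SD of embryos with at least 5 reads and open points for embryos below that. Mcts2 sits at 100% throughout, H13 between 33.8 and 51.4%, Tpx2 between 42.1 and 55.0%, and Id1 scatters from 0 to 76.9% among embryos with at least 5 reads.

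Within embryos with at least 5 reads of both genes, the paternal share of Mcts2 exceeded that of every neighbour, as the plot of shares shows. In all, 4 comparisons were made over embryos with at least 5 reads of both genes, without adjustment, and reverse embryo 1 was left out for its 2 Mcts2 reads. The difference from H13 was 59.6 percentage points ± 5.82 (SD, n = 7; two-sided exact sign-flip permutation test, p = 0.0156), with 56.7 in forward and 61.7 in reverse embryos. Against Bcl2l1 it was 41.0 ± 10.6 (n = 7, exact p = 0.0156), with 45.4 and 37.6 in the crosses. Against Tpx2 it was 49.6 ± 4.13 (n = 7, exact p = 0.0156), with 51.3 and 48.2. Against Id1 it was 55.0 ± 29.6 (n = 6, exact p = 0.03125), with 36.5 and 64.3. Each p is the smallest that its number of embryos allows, and every embryo used showed a positive difference in each comparison. Mcts2 stood at 100% in every embryo, so that each difference is the maternal share of the neighbour and cannot be negative. Each p was thus fixed at its minimum once every embryo used held a maternal read of the neighbour, and adds nothing to the shares. Forward embryo 3 and reverse embryo 1, left out for Id1, had no maternal Id1 read.

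Outside H13 and Mcts2, the table held few tested genes close by. Of 12 genes within 250 kb of Mcts2, 6 were tested, namely the 5 above and Cox4i2, a lung-type isoform of a cytochrome c oxidase subunit, with 16 maternal and 11 paternal reads (log2 ratio -0.86, SE 1.57, adjusted p = 1). The other genes of this window, among them Rem1 upstream with 26 maternal and 25 paternal reads, did not reach 10 reads in any allele library. Within 1 Mb, 25 of 44 genes were tested and Mcts2 was the only one called, beside 1.42% of all tested genes. The other 24 had log2 ratios from -1.25 to 2.25, and 11 of the 25 were placed within 2-fold, beside 35.4% of all tested genes, among them Dnmt3b, a DNA methyltransferase, at -0.06 (SE 0.25, equivalence adjusted p = 0.0177). The median log2 ratio of the 25 was 0.07, beside -0.01 over all tested genes. Dnmt3b and the next gene were singled out after their values were seen. The largest ratio after Mcts2, that of the riboflavin transporter gene Slc52a3 (6 maternal and 37 paternal reads, 2.25, SE 1.01), was not called (adjusted p = 0.593). Among untested genes of the 1 Mb window, Rspo4 had 0 maternal and 18 paternal reads, at most 9 in 1 allele library, and Nrsn2 had 6 and 0. These genes were also picked after their values were seen.

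**Figure D4:**
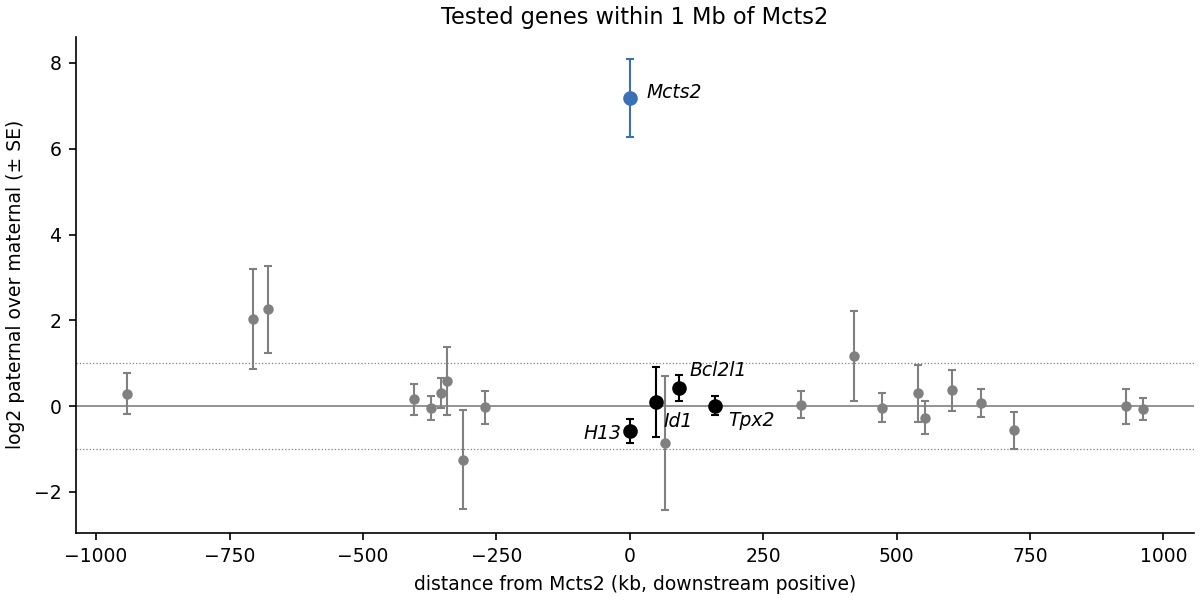
Log2 ratio of paternal over maternal (y axis, point and SE) of the 25 tested genes within 1 Mb of Mcts2 against their distance from it (x axis, kb), with blue for an adjusted p of at most 0.1, black for H13, Id1, Bcl2l1 and Tpx2, and dotted lines at a 2-fold difference. Only Mcts2 is blue, its height depends on the prior count, and its 4 named neighbours lie between -0.58 and 0.42.

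The plot of the neighbourhood holds 1 called gene, the retrogene itself. The level summed over both alleles was then compared between the crosses, in RPM. Mcts2 was at 15.3, 13.9 and 15.7 in forward and at 1.33, 11.3, 7.34, 15.8 and 12.3 in reverse embryos 1, 2, 3, 5 and 7. Only reverse embryo 5 reached the level of the forward embryos, and reverse embryo 1 was the lowest. The difference was not called (log2 reverse over forward -0.61, SE 0.65, adjusted p = 0.861), and without reverse embryo 1 it shrank to -0.32 (SE 0.47). As all Mcts2 reads were paternal, this contrast rests on the same reads as the strain term of Mcts2 above. In whole blastocysts fewer cells of a type and less RNA per cell cannot be told apart.

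H13 was at 110, 126 and 113 RPM in forward and 77.1, 148, 188, 164 and 114 in reverse embryos. The reverse embryos enclosed the forward range (log2 reverse over forward 0.31, SE 0.37, adjusted p = 0.885), and the estimate was 0.07 without reverse embryo 3 and 0.48 without reverse embryo 1, neither of them called. Tpx2 was at 358, 339 and 377 in forward and 269, 192, 238, 249 and 296 in reverse embryos. All reverse embryos were below all forward embryos for Tpx2, as for 4.08% of 13076 genes, but the change was not called (-0.50, SE 0.29, unadjusted p = 0.1004, adjusted p = 0.714 by edgeR). Bcl2l1 (28.03 to 61.9 RPM) and Id1 (1.57 to 10.7) overlapped between the crosses. By edgeR 0 of the 5 genes were called in this comparison, in which 0.0688% of all genes were, and 0 had an unadjusted p under 0.05. DESeq2 also called 0 of the 5, with an unadjusted p of 0.0483 for Tpx2.

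**Figure D5:**
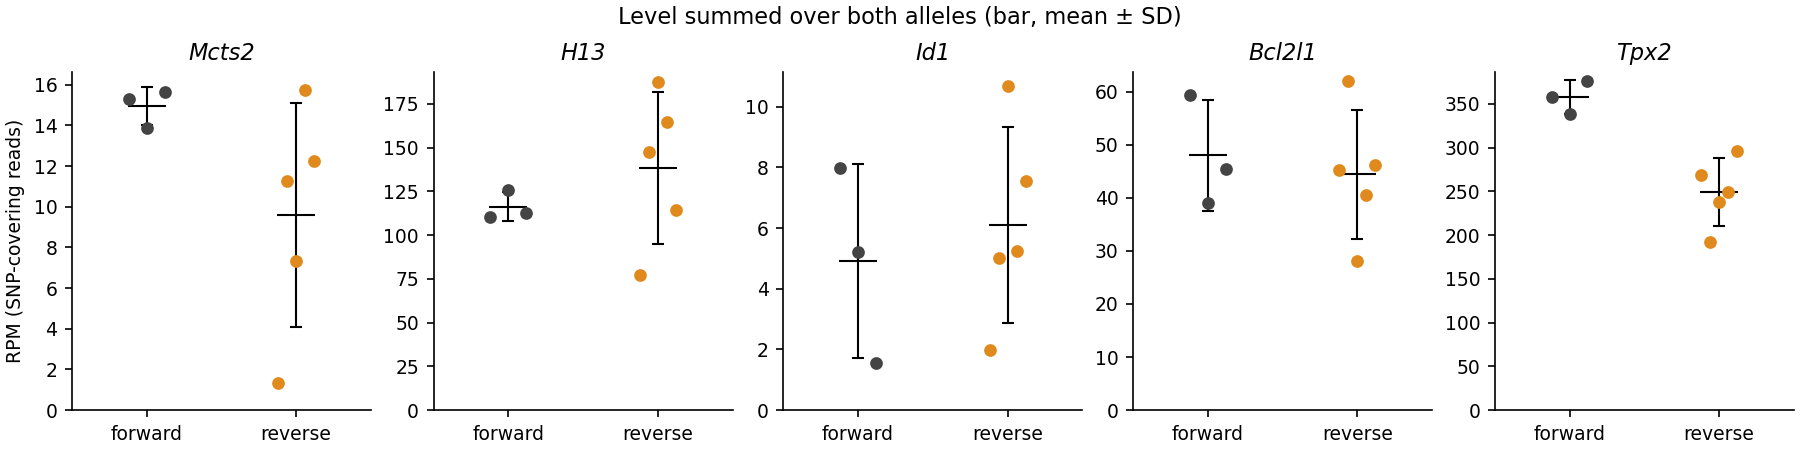
Level of 5 genes summed over both alleles (y axis, RPM, linear from 0, a separate axis for each gene) in forward (grey) and reverse blastocysts (orange), 1 point per embryo, with the mean and SD. Mcts2 of reverse embryo 1 lies at 1.33 and all other embryos at 7.34 or above, and for Tpx2 the crosses do not overlap.

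The plot of total levels should be read gene by gene, since the number of SNPs and the length of a gene set its reads and levels were not compared between genes. The pathway partners of the 5 genes were examined next for a parental difference. The translation factors that act with or like MCTS1 were Denr (84 maternal and 93 paternal reads, log2 ratio -0.16, SE 0.59) and Eif2d (383 and 290, -0.47, SE 0.52), neither of which was called. Among 5 tested genes of the signal peptide peptidase family and its relatives, 0 were called in either direction by edgeR or DESeq2, and 0 had an unadjusted p under 0.05 in edgeR. Over all tested genes the edgeR shares were 1.42% and 7.31%, so that 0 of 5 says little about the family. Sppl2a, a lysosomal and endosomal relative of H13, stood at -0.55 (SE 0.32, adjusted p = 0.894), a value close to that of H13. Sppl3, which encodes a Golgi protease of the family, was placed within 2-fold (0.35, SE 0.29, equivalence adjusted p = 0.0689).

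Of 14 tested members of the BCL2 family, 1 was called paternal and 0 maternal, beside 1.11% and 0.31% of all tested genes, with a median log2 ratio of 0.20. The called gene was Pmaip1, which encodes the pro-apoptotic protein NOXA, with 41 maternal and 180 paternal reads (log2 ratio 1.91, SE 0.52, edgeR adjusted p = 0.0886). In this model the call was lost without any 1 of 6 embryos (all but reverse embryos 1 and 2, adjusted p between 0.119 and 0.521). Pmaip1 was also called by DESeq2 (adjusted p = 0.00929) and by edgeR with the embryo term (adjusted p = 0.0466), but not without the strain term (edgeR adjusted p = 0.102). With the embryo term the call was lost only when a forward embryo was left out (adjusted p between 0.127 and 0.316). The other family members lay between -1.78 for the pro-apoptotic gene Bbc3 (11 maternal and 1 paternal reads) and 1.04 for Bcl2l10. Of 3 ID genes tested, 0 were called by edgeR or DESeq2 or had an unadjusted edgeR p under 0.05, beside 1.42% and 7.31% of all tested genes by edgeR. Id2 was placed within 2-fold (0.08, SE 0.24, equivalence adjusted p = 0.0172). Of 19 tested genes of spindle assembly around TPX2 and Aurora A, 0 were called for parent by edgeR or DESeq2, 0 had an unadjusted edgeR p under 0.05 and 15 were placed within 2-fold (1.42%, 7.31% and 35.4% of all tested genes in turn), with log2 ratios from -0.33 to 0.41. Aurka itself, the kinase that TPX2 activates, was at 0.10 (SE 0.29, equivalence adjusted p = 0.0260).

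Other imprinted retrogenes were set beside Mcts2. Zrsr1, a retrogene of the splicing factor family in an intron of Commd1, had 1 maternal and 23 paternal reads and did not reach the read minimum of the test. Paternal reads were found in all 6 embryos that had any read, and the single maternal read was in reverse embryo 3. The hosts were read from both alleles. Commd1 had 416 maternal and 538 paternal reads (log2 ratio 0.16, SE 0.40) and was placed within 2-fold (equivalence adjusted p = 0.0761). Herc3, the host of the retrogene Nap1l5, had 58 and 106 (0.73, SE 0.54, adjusted p = 1) and Inpp5f, host of an imprinted variant transcript, had 120 and 160 (0.31, SE 0.47, adjusted p = 1). Among the 5 tested genes of this list, 1 was called paternal, Mcts2 itself, and 0 maternal, beside 1.11% and 0.31% of all tested genes. The count thus only repeats the call of Mcts2 given above. No row of Nap1l5 was analysed here.

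The genes whose levels followed Mcts2 most closely over the 16 allele libraries, by Pearson correlation of log2 CPM among 9329 genes with at least 100 reads, were Gm27198 on chromosome 14 (r = 0.957), the imprinted zinc finger gene Peg3 on chromosome 7 (0.9503), Gm32885 (0.949) and Gm33149 (0.931) on chromosome 15, and Timp3 on chromosome 10 (0.929). Their maternal reads numbered 2 to 7 and their paternal reads 101 to 1863. The 2 allele libraries of an embryo share their RNA, so that these values are a description. By the same measure Bcl2l1 had r = 0.510, Tpx2 0.101 and H13 -0.345, and the host ranked 8462. Mcts2 was at 0 in every maternal library, so that r is largely set by how a gene divides between maternal and paternal libraries. These ranks therefore restate the allelic shares given above.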

How the data were processed

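Whole-blastocyst SMART-Seq2 libraries of 3 forward and 5 reverse embryos were analysed as 16 allele libraries. The authors deposited raw read counts per gene and allele, made with STAR on mm10 (version 2.5.2b in the submitters' processing notes, with SAMtools 1.9-92 and bedtools, and another version in the methods), after removal of multi-mapping reads and restriction to reads covering SNPs with Allelome.Pro. Embryos that failed quality were removed by the authors. Strand use and the annotation of the counting are not given in the sources used here. Reads at SNPs are few per gene, which limits precision, and alignment to mm10, a B6 sequence, can favour B6 reads, which was not tested.

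Counts were tested with edgeR 4.0.16 (R 4.3.3) quasi-likelihood fits with TMM scaling, strain and parent as terms, autosomal genes with at least 10 reads in 1 or more allele libraries (12564 genes), Benjamini-Hochberg adjustment and calls at 0.1. Equivalence used a pair of one-sided tests at a log2 margin of 1. Total levels used summed alleles (13076 genes). Exact permutation tests used SciPy 1.17.1 and alignments BLAST 2.17.0. The fits were tested on simulated data. The maternal and paternal libraries of an embryo are paired by their shared embryo, and their deviations from group means correlated (r 0.0821 to 0.487). Replicate numbers shared between crosses are only names. Alternatives comprised DESeq2 1.42.0, RLE, other filters, an embryo term and leaving out embryos. Named genes were the 5 members, tested genes within 250 kb with counts over 1 Mb, list members and the 5 genes most like Mcts2. Members and lists were chosen with earlier results of these data known. Of 22810 genes, 1114 (0.850% of reads) had no annotated position and were not tested. Embryos are the replicates. The main allele fit took the 2 allele libraries of an embryo as separate observations, so that its p-values mix spread within and between embryos. Among the allele fits, only those with the embryo term use the pairing. No p-value covers more than the spread of these libraries.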

Additional observations from a re-analysis of the deposited data

How the results depend on the processing

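The paternal call of Mcts2 was kept in every alternative that gave a value. It gave none with at least 10 reads in every embryo, since reverse embryo 1 had 2. H13 was called maternal with the replicate block, a term for each embryo (-0.56, with strain at 0.49 and an equivalence p of 0.0261). The exact permutation test of B6 shares went the same way (-18.5 points, p = 0.0357) but was not adjusted over genes and is no call. With an embryo left out, with or without the block, H13 lay between -0.70 and -0.48 and its equivalence p between 0.0142 and 0.352. Bcl2l1 lost its equivalence with 1 library size per embryo (p 0.113) and a 1.5-fold margin (0.595), and kept or lost it with an embryo left out (0.0648 to 0.284), and Tpx2 only at 1.5-fold (0.489). Uncalled values changed sign without the strain term (Id1 -0.36, Tpx2 -0.0091), with 1 library size per embryo (strain of Bcl2l1 -0.20, of Tpx2 -0.10) and without an embryo (Id1 -0.18 to 0.92, Tpx2 -0.087 to 0.12; total level of Bcl2l1 -0.26 to 0.043, of Id1 -0.024 to 0.89). The cause was not tested.

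The Mcts2 minus Id1 difference missed p 0.05 with at least 10 reads (49.04 points) and without an embryo (46.0 to 61.4), where so few embryos cannot reach it. Genes called for parent numbered 178, and 406 with any read, 75 with 10 reads in every embryo, 390 with the block, 306 with edgeR's newer dispersion method and 120 to 444 without an embryo (blocked fits included, added after seeing the data), and maternal calls 39, and 8 with 10 reads in every embryo, 130 with any read and 129 with the block. Counts for strain were 1933, 1062 with 10 reads in every embryo, 3209 with the block and 1205 (without forward embryo 1) to 2449 without an embryo. Equivalence counts fell from 4444 to 0 at 1.5-fold, and ran from 1615 (without forward embryo 3) to 6007 without an embryo. The crosses differed in 9 genes, 136 by DESeq2, 0 with 10 reads in every embryo, 18 with replicate number as a block, and 3 (without forward embryo 1) to 160 (without reverse embryo 1) without an embryo. The numbers 1 to 3 shared by the crosses did not pair the embryos (r 0.126, 0.0016 and 0.103).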
